A study of Rattus norvegicus with 4 samples.

Results

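Superoxide dismutases Sod1 and Sod3, sulfiredoxin Srxn1 and metallothionein Mt3 are 4 rat genes that protect cells from reactive oxygen species and metal ions. They were followed in liver RNA of ciprofibrate-dosed rats. Every spot that the platform's probe annotation lists under one of the 4 symbols was taken, which gave 7 of the 7688 spots on each array. Sod1, Sod3 and Mt3 had 2 spots each and Srxn1 had 1, and none of the 7 was listed under a second gene. All 7 carried a measured ratio on all 4 arrays. The genes were picked because of their ratios in this same comparison, so the ratios are given as a description and without a test.

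Each of the 4 two-colour cDNA arrays set total liver RNA of a female Fischer rat, dosed with ciprofibrate at 50 mg/kg each day until day 60, against total liver RNA pooled from 5 control rats. The labels name neither the strain and sex of the controls nor a vehicle. Ciprofibrate is a fibrate that activates the nuclear receptor PPARα and causes peroxisomes to multiply in rodent liver. The arrays are called replicates 1 to 4. The labels do not number the rats, so that each array holds a different rat is an assumption, and without it the spread between arrays could be technical. The control pool is 1 sample that every array shares, and the spread among control rats does not enter any value.

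A ratio compares the 2 RNA samples on one spot and gives no level, so neither the abundance of a transcript nor the liver origin of the RNA could be checked. In whole tissue, fewer cells of a type and less RNA per cell cannot be told apart. The labels put the treated liver in channel 1 but give no dyes. On that channel order alone, a log2 ratio above 0 is taken as likely higher in ciprofibrate livers. A clone here is one spotted cDNA, with its spots averaged, and it is called when its mean log2 ratio differs from 0 at a limma adjusted p under 0.05 over all clones. Of 10 measured clones of genes that peroxisome proliferators are known to induce, 7 had a positive and 3 a negative mean. The called ones were Ech1 (0.67), Me1 (0.43) and Acsl1 (0.41), all positive, and Acot2 (-0.39). The calls of Me1, Acsl1 and Acot2 ended without replicate 1 (0.45, 0.39 and -0.42), replicate 3 (0.42, 0.37 and -0.35) or replicate 4 (0.45, 0.37 and -0.37). After a surface that follows the ratios across the slide was subtracted, Ech1 and Me1 stayed called (0.31 and 0.39) and Acsl1 and Acot2 did not (0.08 and -0.17). Cpt1a, the carnitine transferase of fatty acid import, was at -0.22 and not called, but was called at -0.35 with that surface subtracted (limma adjusted p = 0.0315). All pairs of arrays correlated positively over 4704 clones (Pearson r from 0.47 to 0.76), the lowest with replicate 2. The correlation describes arrays that share one control pool and one slide layout.

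Superoxide arises as a by-product of respiration and of several oxidases. Superoxide dismutases turn it into hydrogen peroxide, which catalase, glutathione peroxidases and peroxiredoxins remove. Sod1 is the copper-zinc dismutase of the cytosol, Sod2 the manganese enzyme of mitochondria and Sod3 a secreted copper-zinc enzyme that binds to the extracellular matrix. Srxn1 repairs peroxiredoxins whose catalytic cysteine has been over-oxidised by peroxide, and its gene is a known target of the transcription factors Nrf2 and AP-1. Metallothioneins are small cysteine-rich proteins that bind zinc and copper, and Mt3 is best known from brain. Peroxisome proliferators are of interest here because the peroxisomal fatty acid oxidation they induce makes hydrogen peroxide.

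The start regions of Srxn1 and Mt3 are shown because both genes gave negative ratios on every array. Srxn1 is a known stress-responsive gene, and Mt3 belongs to a family with metal-responsive members. Whether Mt3 itself responds to metals was not examined. RefSeq promoter sequences of the GRCr8 assembly, from 250 bases before to 50 after the annotated start, were matched for 3 of the 4 genes, Sod1, Srxn1 and Mt3. Capitals mark matches, on either strand, to the AP-1 site TGAGTCA, to the metal response element cores TGCACNC and TGCGCNC or to the nuclear receptor half-site AGGTCA. The antioxidant response element core TGACNNNGC was searched as well. The motifs were chosen with these sequences in view.
Srxn1, chr3:161064562-161064861, plus strand: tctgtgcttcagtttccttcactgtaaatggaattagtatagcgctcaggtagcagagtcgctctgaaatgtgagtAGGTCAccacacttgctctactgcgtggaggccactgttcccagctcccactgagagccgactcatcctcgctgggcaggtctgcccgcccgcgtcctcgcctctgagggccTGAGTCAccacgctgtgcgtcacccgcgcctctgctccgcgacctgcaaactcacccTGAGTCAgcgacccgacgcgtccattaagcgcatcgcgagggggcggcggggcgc
Mt3, chr19:10856031-10856330, minus strand: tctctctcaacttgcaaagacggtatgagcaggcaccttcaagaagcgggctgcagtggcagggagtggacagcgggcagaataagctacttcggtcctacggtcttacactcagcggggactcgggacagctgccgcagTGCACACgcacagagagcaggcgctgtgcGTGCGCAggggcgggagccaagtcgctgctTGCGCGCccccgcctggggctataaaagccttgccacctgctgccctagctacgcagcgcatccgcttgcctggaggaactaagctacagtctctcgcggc

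The Srxn1 window held 2 AP-1 sites, a motif found in 4.63% of the 33469 promoters of that length, and 1 nuclear receptor half-site, found in 16.2%. The Mt3 window held 1 match to TGCACNC and 2 to TGCGCNC, found in 12.2% and 14.1% of promoters. No overlap occurred among the matches shown. TGACNNNGC, present in 12.1% of promoters, had no match in the windows of Srxn1, Mt3 or Sod1, and the Sod1 window held none of the 5 motifs. Only this form of the core was searched. The second Srxn1 AP-1 site continues as TGAGTCAgc, which differs from the searched form only in having G for C. The lack of a match is therefore not the lack of such an element. These matches describe letters in the windows and were not linked to the ratios.

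Sod1, the cytosolic dismutase, had ratios of treated liver to control pool between 1.31 and 1.57 at its spots. Its first spot stood at log2 ratios of 0.40, 0.65, 0.50 and 0.43 on replicates 1 to 4 and its second at 0.39, 0.52, 0.52 and 0.41. Both spots were above 0 on every array and differed by 0.04 on average and by at most 0.13. With the 2 spots averaged and each array centred on its median, Sod1 was at 0.40, 0.56, 0.54 and 0.50. The mean was 0.50 ± 0.07 (log2, SD, n = 4), a 1.42-fold difference, and 200 of the 4704 clones with values on all arrays had a higher mean.

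Sod3, the secreted dismutase, was higher on the ratio scale than Sod1 on each array. Its first spot stood at log2 ratios of 0.53, 0.72, 0.77 and 0.67 on replicates 1 to 4 and its second at 0.53, 0.83, 0.79 and 0.67. After centring, Sod3 was at 0.54, 0.75, 0.81 and 0.75, with replicate 1 the lowest. The mean was 0.71 ± 0.12 (log2, SD, n = 4), a 1.64-fold difference, and 19 clones were higher. The log2 ratio of Sod3 exceeded that of Sod1 by 0.14, 0.18, 0.27 and 0.25, or 0.21 ± 0.06 on average. This compares 2 ratios and not the abundance of the 2 transcripts. The excess on each array was not kept with the surface across the slide subtracted. Sod3 was then at 0.24, 0.65, 0.26 and 0.20 on replicates 1 to 4, and Sod1 at 0.24, 0.25, 0.27 and 0.13.

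Srxn1, the repair enzyme of peroxiredoxins, had the lowest ratios of the 4 genes. Its single spot stood at 0.132, 0.423, 0.449 and 0.512 times the control pool on replicates 1 to 4. On the centred log2 scale these were -2.91, -1.27, -1.12 and -0.89, and the mean was -1.55 ± 0.92 (SD, n = 4), a 2.92-fold difference. Replicate 1 lay apart from the others: none of the 4704 clones was lower than Srxn1 there, against 87, 142 and 293 clones on replicates 2 to 4. Without replicate 1 the mean was -1.09. The SD was larger than that of 99.1% of clones, whose median SD was 0.21. With 1 spot per array, no second spot shows whether this spread belongs to the spot or to the rats.

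Mt3, the metallothionein known from brain, had negative ratios that hardly varied. Its first spot stood at log2 ratios of -0.63, -0.54, -0.58 and -0.56 on replicates 1 to 4 and its second at -0.71, -0.63, -0.62 and -0.65. The spots differed by 0.08 on average, while the median difference between the paired spots of 1564 clones was 0.10. After centring, Mt3 was at -0.66, -0.61, -0.57 and -0.52. The mean was -0.59 ± 0.06 (log2, SD, n = 4), a 1.51-fold difference, and only 1.70% of clones had a smaller SD. In the ranking of means 398 clones were lower, so the ratio was steady across arrays but not among the lowest.

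**Figure D1:**
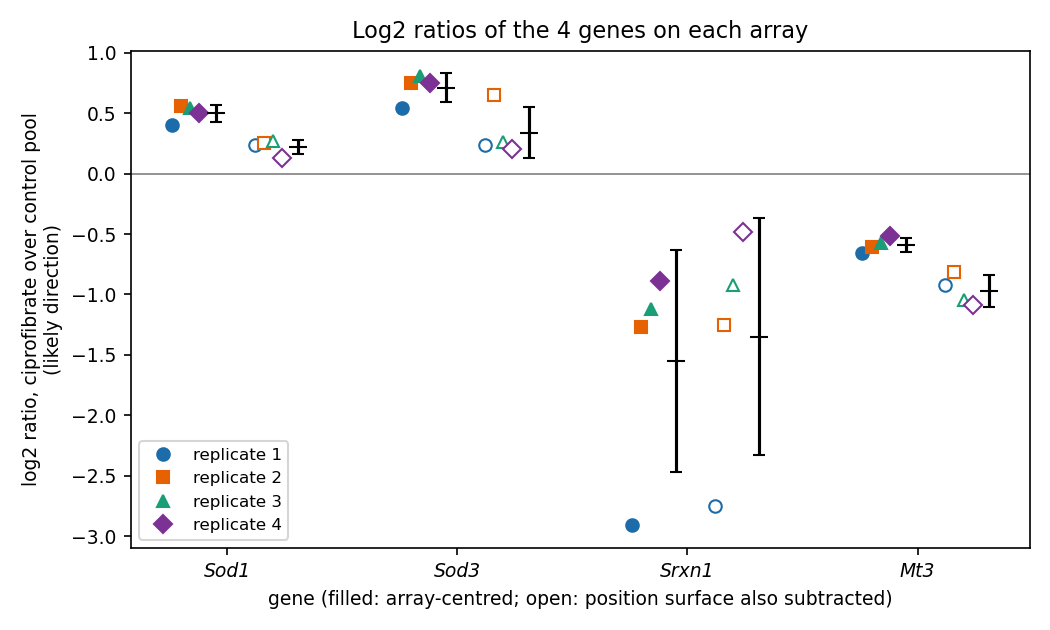
Log2 ratios of Sod1, Sod3, Srxn1 and Mt3 on the 4 arrays (points), with the mean and SD (bars); filled points are array-centred values and open points have a smooth surface over spot positions subtracted too. Sod1 and Sod3 lie above 0 and Srxn1 and Mt3 below 0 on every array in both settings, and replicate 1 of Srxn1 lies apart at -2.91.

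Across all 4704 clones, tested with limma as the mean log2 ratio against 0, 13.6% were called positive and 15.0% negative at an adjusted p under 0.05. Sod1 and Sod3 were among the 638 positive and Srxn1 and Mt3 among the 706 negative calls, and since the genes were picked from this comparison nothing is read from that count. Without replicate 3, the call of Sod1 ended at a mean of 0.49. A ratio of one sign on all 4 arrays was common: 27.2% of clones were positive and 25.6% negative on every array.

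**Figure D2:**
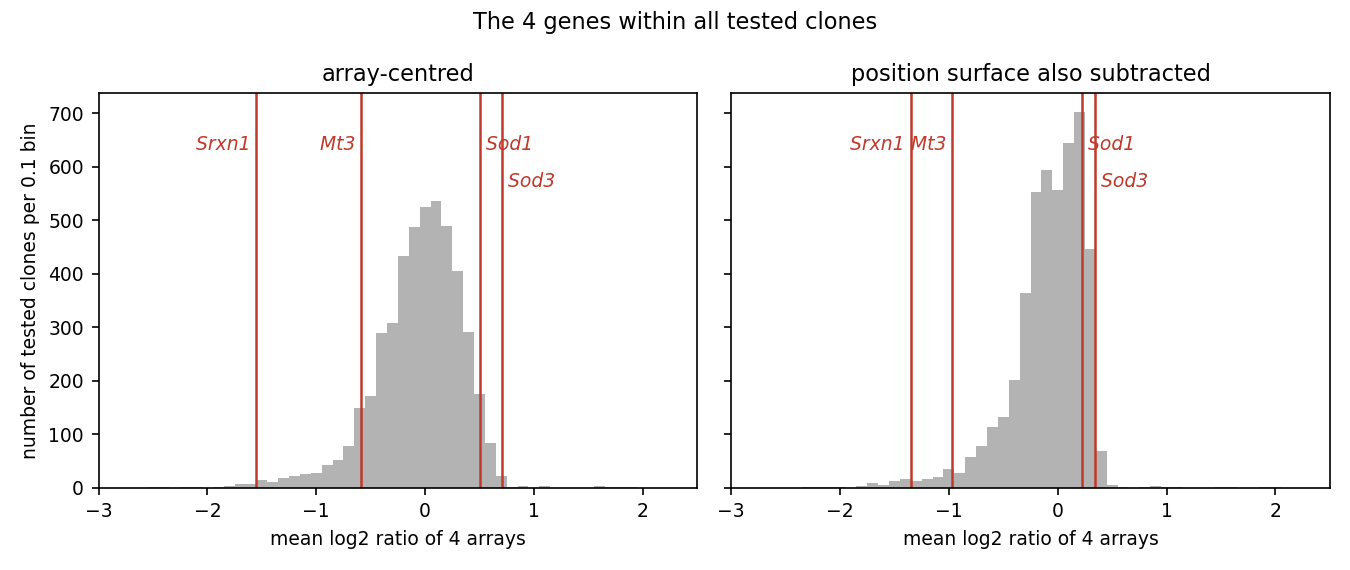
Histograms of the mean log2 ratio of the 4704 tested clones (bars, number of clones per bin of 0.1), array-centred on the left and with the position surface also subtracted on the right, with the means of the 4 genes as lines. Sod1 and Sod3 lie at 0.50 and 0.71 on the left and nearer to the bulk of clones, at 0.22 and 0.34, on the right. Mt3 lies at -0.59 on the left and farther out, at -0.97, on the right.

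The place of a spot on the slide bears on these 4 genes in different ways. In the layout inferred from the values, 95.0% of the positive and 27.6% of the negative calls came from blocks on the left side of the slide, where 50.7% of the clones were printed. Sod1, Sod3 and Mt3 lie in left blocks and Srxn1 in a right one. The 2 spots of Sod1 share a block, as do those of Sod3 and those of Mt3. The agreement of paired spots therefore does not separate a gene from its place on the slide. Each spot was therefore set beside the spots within 2 rows and columns of it in its block, without centring.

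The Sod1 spots stood above most of their neighbours on 3 arrays, by small amounts. The median of the 24 spots around the first Sod1 spot was 0.23, 0.52, 0.33 and 0.36 (log2) on replicates 1 to 4, which left the spot 0.18, 0.13, 0.17 and 0.07 above it. Of these 24 neighbours 2, 10, 0 and 3 were higher than the spot. The second Sod1 spot was 0.18, 0.22 and 0.10 above the median of its neighbours on replicates 1, 3 and 4, where 0, 1 and 2 of 24 were higher. On replicate 2 it was 0.10 below that median (difference -0.10), and 17 of its 24 neighbours were higher.

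Sod3 exceeded its surroundings, by unequal amounts on the 4 arrays. The first Sod3 spot was 0.21, 0.66, 0.22 and 0.20 above the median of its neighbours on replicates 1 to 4 and the second was 0.24, 0.72, 0.26 and 0.13 above. On replicate 2 the neighbours had medians of 0.06 and 0.11, and all of the measured ones were lower than Sod3. Replicate 2 thus gave the widest gap, while the other 3 arrays gave gaps near 0.2.

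Mt3 ran against its surroundings. The neighbours of its first spot had medians of 0.31, 0.32, 0.49 and 0.47 and those of its second of 0.19, 0.22, 0.37 and 0.48. Mt3 lay below those medians by amounts whose differences ran from -1.12 to -0.85 over both spots and all arrays. On replicates 1 and 4 every measured neighbour was higher than Mt3. The Srxn1 spot, with fewer neighbours because it lies near the edge of a block, differed from their median by -2.81, -1.46, -1.03 and -0.51. All 18 measured neighbours were higher than Srxn1 on replicates 1 to 3, and 16 of 18 on replicate 4. Some of these neighbours were low as well. The lowest stood at log2 ratios of -1.98, -1.02, -1.15 and -1.05 on replicates 1 to 4. Srxn1 itself was at -2.92, -1.24, -1.16 and -0.97, so on replicate 3 it was only just the lower.

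**Figure D3:**
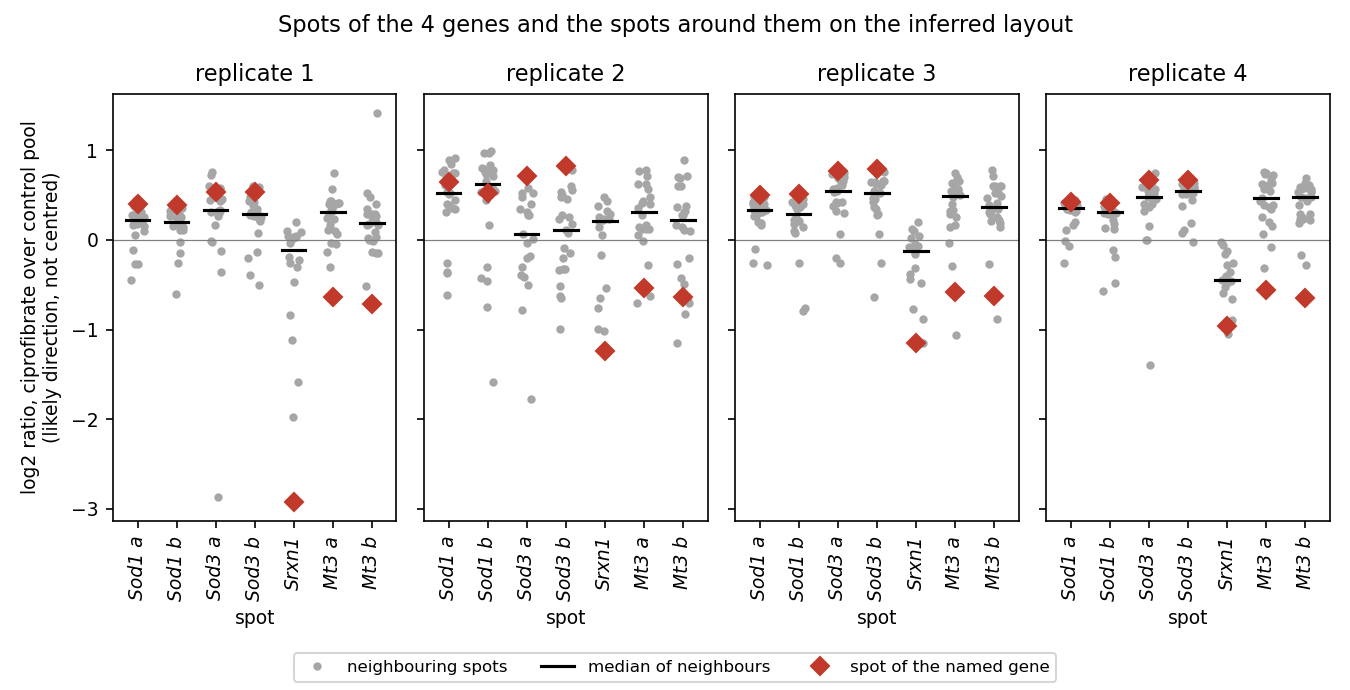
Uncentred log2 ratio of each spot of the 4 genes (diamonds; a and b are the 2 spots of a gene) and of the spots within 2 rows and columns of it (grey points, with their median as a bar), one panel per array. Sod1 sits within 0.22 of the median of its neighbours and above most of them except on replicate 2, Sod3 sits above the median and most clearly on replicate 2, and Mt3 and Srxn1 lie well below it.

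Subtracting a smooth surface over the spot positions gave the same order of the 4 means, though not the same order on each array. Sod1 was then at 0.24, 0.25, 0.27 and 0.13 on replicates 1 to 4, with a mean of 0.22 ± 0.06 (log2, SD, n = 4), and 15.4% of clones were higher. Sod3 was at 0.24, 0.65, 0.26 and 0.20, with a mean of 0.34 ± 0.21 in which replicate 2 stands apart, and 2.55% of clones were higher. Srxn1 was at -2.75, -1.25, -0.92 and -0.48, with a mean of -1.35 ± 0.98. Mt3 was at -0.92, -0.81, -1.05 and -1.09, with a mean of -0.97 ± 0.13, and 2.72% of clones were lower. In that setting 2.85% of clones were called positive and 11.3% negative. Of the 4 genes Mt3 alone was called there, with the same reservation on how the genes were picked.

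The clones with 1 gene symbol whose 4 centred log2 ratios lay nearest to each gene were found by Euclidean distance over the 4 arrays among 2703 others. Nearest to Sod1 were Rps23, a ribosomal protein, at a distance of 0.05, then Cdc25b, a cell cycle phosphatase, at 0.09 and Cox8a, a cytochrome oxidase subunit, at 0.09. Nearest to Sod3 were Cma1, a mast cell chymase, at 0.07, the glycolytic gene Ldha at 0.09 and the chaperonin gene Tcp1 at 0.10. All 6 lie in left blocks, as Sod1 and Sod3 do, and with the position surface subtracted their means lay between 0.20 and 0.38. Nearest to Mt3 were Cnp, a phosphodiesterase known from myelin, at 0.15, Sar1a, a GTPase of vesicle budding, at 0.18 and Ggh, gamma-glutamyl hydrolase, at 0.19. Srxn1 had no close neighbour, since Myh10, a non-muscle myosin, was nearest at 1.22, followed by Lrrc71 at 1.28 and Vsir at 1.35.

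The other genes of antioxidant defence and metal handling, and oxidases that make peroxide or superoxide, were taken as 8 lists. These were chosen with earlier results of these data known and are called antioxidant lists for short. The oxidases form 1 of them and make oxidants, so the pooled counts are not of antioxidant genes alone. Without the 4 genes, 53 clones of 52 genes with 1 symbol were measured on all arrays, of which 9 were called positive, 7 negative and 37 neither. These shares, 17.0% and 13.2%, stand beside 15.1% and 14.4% of the 2707 clones with 1 symbol, so they were near the background. The median of the 53 was -0.03 (log2), beside 0.01. With the position surface subtracted 1 of the 9 positive and 6 of the 7 negative calls held, and 8 of the 9 lie in left blocks. In that setting 1 further clone, of Aco1, was called negative. None of the 9 positive calls held without replicate 3 or without replicate 4, and 3 held without replicate 1. Of the 7 negative calls 3 held without replicate 1, 3 without replicate 3 and 3 without replicate 4. These were not the same clones throughout, and 2, of Tf and Cyba, held without each single array. All 16 clones kept their sign without any 1 array. Over the whole slide fewer clones were called without replicate 1, 3 or 4. Without replicate 2 more were called, 872 positive and 895 negative, and the lists then had 16 positive and 9 negative calls.

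Sod2, the mitochondrial dismutase, was not called, at -0.25 ± 0.14 (log2, SD, n = 4, limma adjusted p = 0.0918). Its values of -0.15, -0.23, -0.18 and -0.46 on replicates 1 to 4 were all below 0, where Sod1 and Sod3 were all above it. Sod2 lies in a right block, where the median clone was at -0.16, and Sod1 and Sod3 in left blocks, where it was at 0.15. With the surface subtracted Sod2 was at -0.23 and not called, beside Sod1 at 0.22 and Sod3 at 0.34. Sod1 and Sod3 were picked for their ratios, and the part of slide place in this contrast was not tested. Ceruloplasmin, Cp, the copper-carrying ferroxidase of plasma, was at -0.45 ± 0.43 and not called. Replicate 2 was its lowest at -1.07, and without it the mean was -0.24. These 2 were the measured genes of the list of dismutases and copper delivery, with a median of -0.35, or -0.25 without replicate 2.

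Among 7 clones of peroxide removal 2 were called, both positive, with a list median of -0.03 (0.10 without replicate 2). Gpx4, the glutathione peroxidase that acts on lipid peroxides, was at 0.49 ± 0.24 (SD, n = 4, limma adjusted p = 0.0219). Gpx3, the plasma glutathione peroxidase, was at 0.38 ± 0.16 (adjusted p = 0.0323). With the surface subtracted they were at 0.14 and 0.20 and not called. Without replicate 1, 3 or 4 neither was called (Gpx4 at 0.48, 0.45 and 0.44, Gpx3 at 0.45, 0.32 and 0.39). The measured peroxiredoxins, a family of which Srxn1 repairs some members, were not called: Prdx2 was at 0.33 ± 0.42, Prdx5 at -0.28 ± 0.26 and Prdx6 at -0.24 ± 0.44. Prdx2 and Prdx5 were at -0.05 and -0.07 with the surface subtracted, and Prdx5 was at -0.10 with block medians subtracted. Without replicate 2 both were called, Prdx2 at 0.52 (adjusted p = 0.0124) and Prdx5 at -0.37 (adjusted p = 0.0428), while Prdx6 was at -0.02. Catalase, Cat, was at -0.03 ± 0.28 and Gpx1, chosen for mention after its value was seen, at -0.12 ± 0.10.

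Among 5 clones of the thioredoxin system 1 was called each way, with a median of 0.03. Txn2, the mitochondrial thioredoxin, was at -0.37, -0.71, -0.34 and -0.71 on replicates 1 to 4, a mean of -0.53 ± 0.20 (SD, n = 4, limma adjusted p = 0.0145). It held with the surface subtracted (-0.61) but was not called without replicate 4 (-0.47, adjusted p = 0.0653). Txnrd2, the mitochondrial thioredoxin reductase that keeps Txn2 reduced, was at 0.34 ± 0.09 (adjusted p = 0.0341), and at 0.05 with the surface subtracted. Its call also ended without replicate 1 (0.37), 3 (0.35) or 4 (0.34).

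The list of glutathione synthesis and reduction had 3 of 5 clones called, all negative, and a median of -0.40. Beside this, 14.4% of clones with 1 symbol were called negative. No clone of glutathione reductase was among the 5, so the count does not bear on reduction. Gss, glutathione synthetase, was at -0.26, -0.56, -0.30 and -0.48 on replicates 1 to 4, with a mean of -0.40 ± 0.14 (SD, n = 4, limma adjusted p = 0.0257). Dpep1, a dipeptidase that degrades glutathione conjugates, was at -0.61 ± 0.39 (adjusted p = 0.0244). Oplah, the 5-oxoprolinase of the glutathione cycle, named because it completes the count, was at -0.61 ± 0.49 (adjusted p = 0.0387) and was positive on replicate 4 (0.10). Gss and Oplah held with the surface subtracted (-0.42 and -0.96) and Dpep1 did not (-0.55, adjusted p = 0.0556). The calls of Gss and Dpep1 ended without replicate 1 (-0.45 and -0.58), 3 (-0.43 and -0.65) or 4 (-0.37 and -0.45). That of Oplah ended without replicate 1 (-0.58), 2 (-0.47) or 3 (-0.53). Gclm, the modifier subunit of the enzyme that starts glutathione synthesis, was at -0.03 ± 0.15 and was not called.

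Of 8 clones of glutathione transferases 2 were called, both positive, with a median of 0.04. Gstm7 was at 0.47 ± 0.20 and Gstp1 at 0.39 ± 0.06 (SD, n = 4, limma adjusted p = 0.0205 and 0.0223). They were at 0.13 and 0.10 with the surface subtracted, and neither held there. Without replicate 3 (0.41 and 0.38) or 4 (0.42 and 0.36) neither was called, and Gstp1 was not called without replicate 1 either (0.40).

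The list of Nrf2 pathway regulators and target enzymes, to which Srxn1 could be counted, had 2 of 10 clones called positive and 1 negative, with a median of 0.04. Nfe2l2, which encodes Nrf2 itself, was at -0.15, -0.41, -0.42 and -0.45 on replicates 1 to 4, a mean of -0.36 ± 0.14 (SD, n = 4, limma adjusted p = 0.0344). Me1, the malic enzyme that supplies NADPH, was at 0.43 ± 0.08 (adjusted p = 0.0170) and Hmox2, the constitutive haem oxygenase, at 0.37 ± 0.18 (adjusted p = 0.0365). Nfe2l2 and Me1 held with the surface subtracted (-0.33 and 0.39) and Hmox2 did not (0.15). All 3 calls ended without replicate 1 (Nfe2l2 -0.43, Me1 0.45, Hmox2 0.45), replicate 3 (-0.34, 0.42 and 0.39) or replicate 4 (-0.33, 0.45 and 0.33). Of the inducible targets, mentioned after their values were seen, Nqo1, a quinone reductase, was at -0.18 ± 0.29 and Hmox1, the inducible haem oxygenase, at 0.01 ± 0.23, and neither was called.

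Among 9 clones of metallothioneins and of zinc or iron handling 1 was called, Tf, the plasma iron carrier transferrin, at -0.69 ± 0.20 (SD, n = 4, limma adjusted p = 0.00724). Tf held with the surface subtracted (-0.66) and without each single array. Aco1, named because its call changed, was at -0.29 and not called, but was called at -0.51 with the surface subtracted (limma adjusted p = 0.0188). Mt2A, a metallothionein of liver, was at -0.33, -0.07, -0.28 and -0.42 on replicates 1 to 4, a mean of -0.27 ± 0.15 that was not called, but was called at -0.34 without replicate 2 (adjusted p = 0.0238). Mt4, a metallothionein known from stratified epithelium and mentioned as the remaining family member measured, was at -0.10 ± 0.11. The list median was -0.16, or -0.07 without replicate 2. Spotted cDNA of one metallothionein can bind transcripts of another, so the ratios of the Mt3, Mt2A and Mt4 clones may share signal, which was not tested.

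Among 7 clones of oxidases that make peroxide or superoxide 2 were called positive and 1 negative, with a median of 0.10 (0.32 without replicate 2 and -0.12 with the surface subtracted). Cyba, a membrane subunit of the NADPH oxidase, had a clone at -0.94, -1.38, -1.01 and -1.74 on replicates 1 to 4, a mean of -1.27 ± 0.37 (SD, n = 4, limma adjusted p = 0.00286). This clone held with the surface subtracted (-1.25) and without each single array. A second Cyba clone was at 0.04 ± 0.49 and was not called (-0.19 with the surface subtracted), so the 2 clones disagree and the gene has no settled ratio. Rac2, a GTPase that activates the same oxidase in leukocytes, was at 0.51 ± 0.11 (adjusted p = 0.0114) and Hao2, a peroxisomal hydroxy acid oxidase, at 0.43 ± 0.15 (adjusted p = 0.0212). Neither held with the surface subtracted (0.19 and 0.10), without replicate 3 (0.47 and 0.38) or without replicate 4 (0.49 and 0.43).

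**Figure D4:**
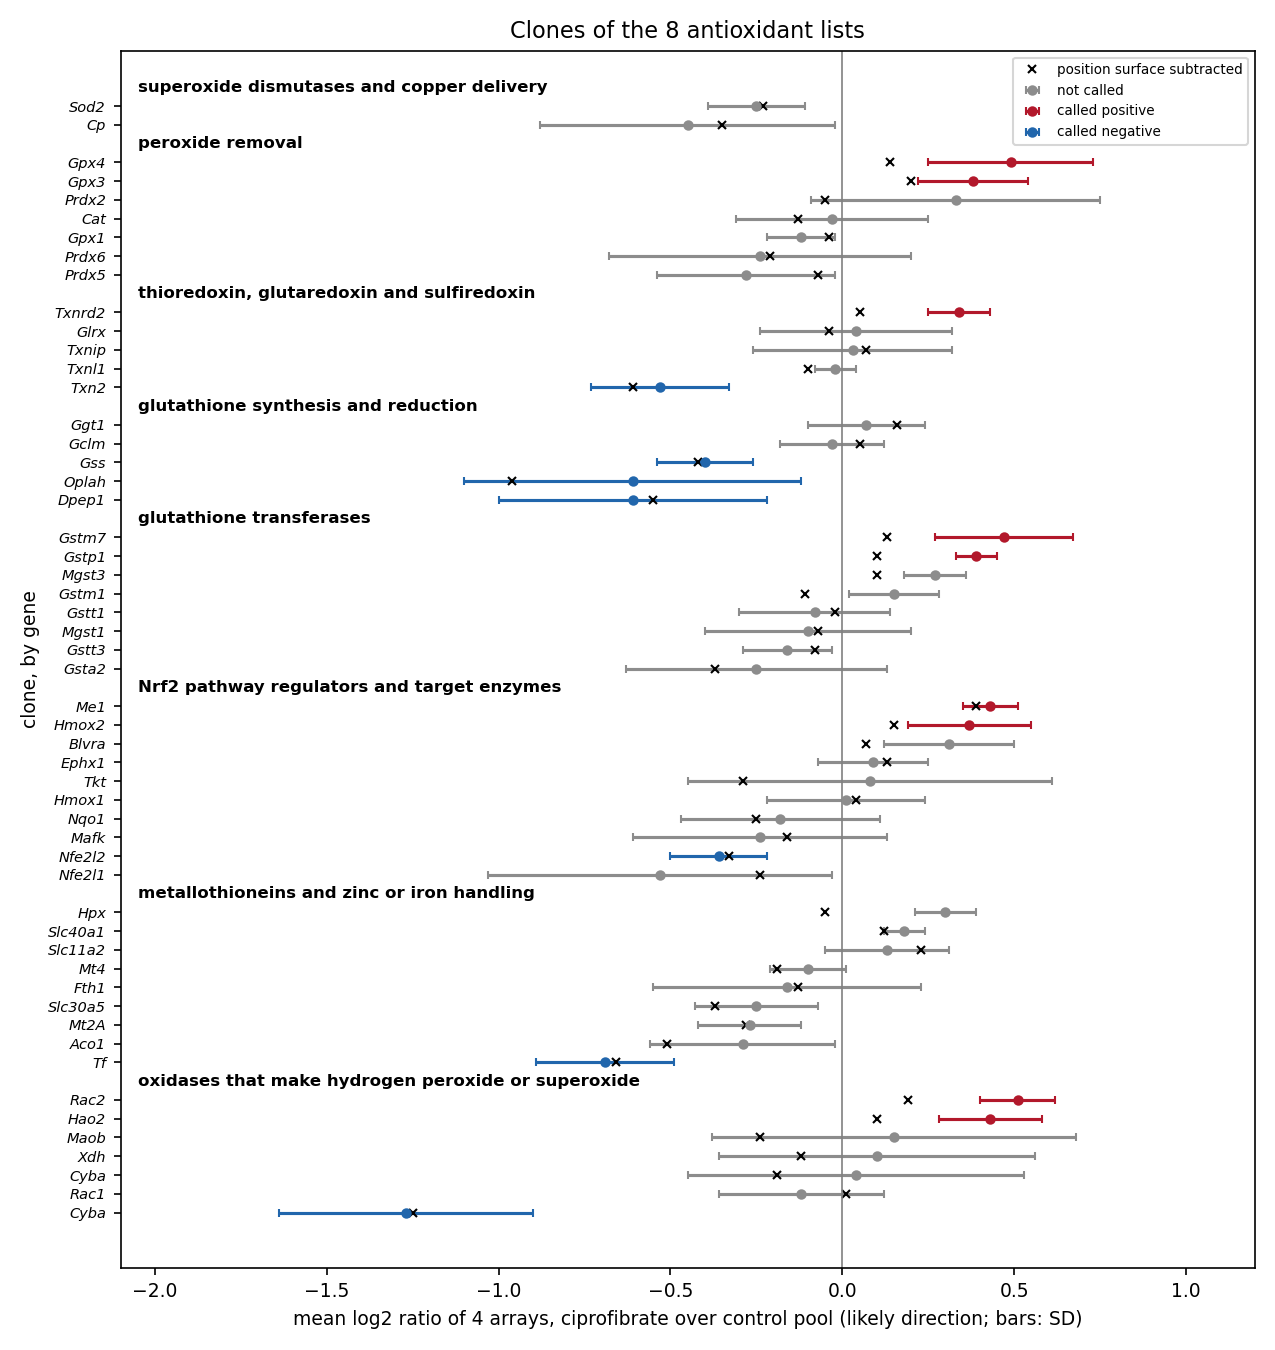
Mean log2 ratio of the 4 arrays for each clone of the 8 antioxidant lists (points, with SD as bars; red called positive, blue called negative, grey not called at an adjusted p under 0.05), with the mean after subtraction of the position surface as a cross. Of the red points Me1 alone kept its call with the surface subtracted, while most of the blue points stayed near their values. The lists include the oxidases that make peroxide or superoxide.

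Markers of the cell types that liver tissue can hold went in both directions. Their counts stand beside the 15.1% of clones with 1 symbol called positive and 14.4% called negative. Of 8 hepatocyte clones 7 had a negative mean and 1, Fgb, a fibrinogen chain, was called at -0.49. The hepatocyte median was -0.42, but -0.14 without replicate 2, and Fgb was not called with the surface subtracted (-0.38, adjusted p = 0.0879). Of 10 clones of stellate cells, fibroblasts and smooth muscle, cells of the kind that secrete Sod3, 4 were called positive and 2 negative (median 0.18). With the surface subtracted none of the 4 and 1 of the 2 held. Col1a2 stands in both counts, with a left clone at 0.39 and a right clone at -0.58, so its clones disagree. Macrophage markers had 1 of 3 clones called each way (median 0.18), C1qc at 0.31 and C1qb at -1.23. Of these the negative call held with the surface subtracted. Endothelial markers had 1 of 2 called positive (median -0.23), which did not hold there. The single mast cell marker measured, Cma1, was called positive at 0.69, and at 0.38 with the surface subtracted. Red blood cell markers had 2 of 3 clones called negative (median -0.73), and both held. Neuron and astrocyte markers, which bear on a gene known from brain such as Mt3, had 2 of 5 clones called negative and none positive (median 0.18). With the surface subtracted 1 of those 2 held and the median was -0.14, and without replicate 2 it was 0.08. No cholangiocyte or lymphocyte marker was measured under 1 symbol on all arrays. The part of these cell types in the ratios of the 4 genes was not tested.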

How the data were processed

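The table that the authors deposited holds 1 number for each spot of an array and states no unit. The deposited values are read as log10 ratios: raised as powers of 10 and multiplied to thousandths, 100.0% of them came within 0.02 of a whole number. The deposited medians were -0.02, -0.04, -0.03 and -0.05 (log10) on replicates 1 to 4. What was done for background correction and normalization, and with which scanner and direction, is not given in the sources used here. The value repeated most on each array, on 1171 to 1189 spots at linear ratios of 0.744 to 0.799, was read as a missing ratio, which left 6499 to 6517 measured spots.

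Values were turned to log2. Symbols came from an older platform annotation (5252 of 7688 probes; 5169 with 1 symbol, 83 with several, 2436 not listed), and 5140 were updated through the Entrez number with GRCr8. Spots of one listed clone were averaged, arrays were centred on their median (-0.08 to 0.03), and the 4704 clones with 4 values were tested with R 4.3.3 and limma 3.58.1 (lmFit, eBayes, Benjamini-Hochberg, two-sided, 0.05), a method tried on simulated data first. The number of arrays limits the precision. The surface was a robust loess fit (span 0.05, degree 1, 4 iterations) over 8 blocks of 31 by 31 spots, a layout inferred from the values. The genes, lists and tests were chosen with earlier results of these data known. Named were all clones of the 4 genes and of fixed partner genes (Sod2, Cat, peroxiredoxins, Mt2A, Nfe2l2 and others), per list the 2 called clones of each sign with the smallest p, or 2 where none was called, and the 3 nearest profiles. Ccs, Prdx1, Prdx3, Prdx4, Txn1, Mt1 and Keap1 were not analysed here.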

Additional observations from a re-analysis of the deposited data

Results flagged for a closer look

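Of 39 clones examined for an array far from the others, 2 stood out. Nfe2l2 was at -0.15 on replicate 1, with a gap of 0.862 of its whole range to the other arrays, and Acsl1 was at 0.08 on replicate 2, with a gap of 0.861. Both gaps were above Dixon's critical value for 4 values. Chance alone is expected to mark about 1 in 20 such groups, so 2 of 39 is near that rate. Srxn1 on replicate 1, described above, stayed just under the critical value.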

How the results depend on the processing

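Sod1, Sod3, Srxn1 and Mt3 kept their sign in all 13 alternatives. With the position surface subtracted Sod1, Sod3 and Mt3 were at 0.22, 0.34 and -0.97, with block medians subtracted at 0.39, 0.50 and -0.80, and with the repeated value kept as a ratio Sod1 and Mt3 were at 0.61 and -0.49, each a shift above 1 SD. Leaving out each array gave 0.48 to 0.53 for Sod1, 0.68 to 0.77 for Sod3, -1.77 to -1.09 for Srxn1 and -0.61 to -0.57 for Mt3.

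Over all clones the main counts of 638 positive and 706 negative calls became 1148 and 1211 with array weights, 993 and 462 with the repeated value kept, 380 positive with block medians and 134 positive with the surface subtracted. Leaving out each array gave 99 to 872 positive and 323 to 895 negative calls. The 9 positive and 7 negative calls of the antioxidant lists became 15 and 13 with array weights, 3 positive with block medians and 1 positive with the surface. The negative ones became 4 with the repeated value kept. Leaving out each array gave 0 to 16 positive and 3 to 9 negative calls. With every spot as a row 15 spots were positive and 14 negative. Those are counts of spots and cannot be set against the counts of clones.

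Of the 35 other clones followed singly, 7 changed sign, none of them called before. Cat was at 0.10 with array weights, 0.00 with block medians, 0.02 with quantile normalization, 0.07 with the repeated value kept and from -0.11 to 0.10 with each array left out. Hmox1 was at -0.10 with array weights, -0.01 with every spot as a row, -0.02 without centring, -0.04 with quantile normalization and from -0.09 to 0.07 with each array left out. Gclm was at 0.15 with block medians, 0.05 with the surface, 0.08 with the repeated value kept and from -0.10 to 0.02 with each array left out. The second Cyba clone was at -0.10 with block medians, -0.19 with the surface and from -0.12 to 0.27 with each array left out; averaged with the first, as clones of one gene, it was at -0.62 by construction. Prdx2 was at -0.05 with the surface, Gpx1 at 0.06 with block medians and Mt4 at 0.00 with the repeated value kept. Over the 13 alternatives the 21 called clones gave 190 values still past the threshold and 83 no longer past it. The 14 clones not called gave 147 values of the same sign that stayed short of it, 12 that passed it and 23 of the other sign. The cause was not tested. Each value is already a ratio of treated liver to control pool within one array, so the test against 0 uses that pairing. No treated rat could be paired with a control rat of its own, because the control RNA is one pool on every array. The table holds no intensities, so signal over background could not be used.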
